A study of Mus musculus with 6 samples.

Results

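Mouse orthologs of human glaucoma genes were examined in whole retina after 4 weeks of elevated intraocular pressure (IOP). The members were 10 genes chosen by symbol for their role in human glaucoma, *Optn*, *Tbk1*, *Cav1*, *Cav2*, *Abca1*, *Tmco1*, *Cyp1b1*, *Myoc*, *Six6* and *Afap1*, out of 31169 genes in the deposited count table. All 10 were found there, and all 10 passed the filter on low counts that left 17707 genes for testing. The 10 were chosen with earlier results of these data known, so their share past a threshold is a description only. Poly(A) RNA was sequenced from the retina of C57BL/6 mice that were 2 months old at harvest and had been injected in the anterior chamber at 1 month of age. Of the 6 libraries, 3 came from saline-injected and 3 from microbead-injected retina. The beads were 15 μm in diameter and block the drainage of aqueous humor, and saline was the control. According to the study's methods the mice were male and both eyes were injected. The sources do not say whether retinas of 1 group came from the same mouse, so that p-values measure only the spread between these libraries.

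Glaucoma is a degeneration of retinal ganglion cells (RGCs) and their axons, for which elevated IOP is the main risk factor. Some of its genes act in the tissue that sets the pressure, the trabecular meshwork and ciliary body, and others in the neurons and glia that the pressure harms. *OPTN* (optineurin) and *TBK1* belong to 1 pathway, in which the kinase phosphorylates the receptor that brings cargo into autophagosomes, and changes in either gene cause glaucoma at normal pressure. *MYOC* (myocilin) and *CYP1B1* (a cytochrome P450) underlie juvenile and congenital forms. *CAV1* and *CAV2* (caveolins), *TMCO1*, *SIX6*, *ABCA1* and *AFAP1* lie at loci found by association in populations.

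Of the 10 genes, 1 fell past the threshold of edgeR's quasi-likelihood test (Benjamini-Hochberg adjusted p under 0.05 over all tested genes) and 0 rose. *Cav2*, the smaller partner of caveolin 1 in the coat of caveolae, fell 2.13-fold after microbead injection. Among all 17707 genes tested, 12.8% were past the threshold, 6.46% higher and 6.31% lower, so the share of members past it, 10%, lay near the background. At an unadjusted p under 0.05, *Cav2*, *Cav1* and *Cyp1b1* were lower and 0 members were higher, while 31.4% of all tested genes had such a p. DESeq2 and limma-voom also called *Cav2* lower and 0 members higher, but the call was lost in 4 of the 6 edgeR fits that left out a library. The groups did not overlap in counts per 1000000 (CPM) for 3 members, *Cav2* and *Cyp1b1*, which were lower, and *Optn*, which was higher, against 37.8% of all tested genes (18.8% higher and 18.9% lower). The median log2 fold change was -0.20 over the 10 members and -0.03 over all tested genes.

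Libraries held between 13574949 and 46481382 counts, and the ratio of the median saline to the median microbead total was 2.40. Mitochondrial genes took 3.19 to 3.57% of the counts in saline and 8.90 to 10.6% in microbead libraries. In the descriptions of the samples, the library names of each group form a series of their own, while the sample titles run on across the groups. Whether the library names mark separate preparations is not stated, and such a difference and the injection cannot be told apart. As a check of the tissue, 7 cone markers summed to 1101 to 1521 CPM and 6 bipolar cell markers to 1073 to 1513 CPM over the 6 libraries. The 10 rod markers summed to 68091.7 to 89657.7 CPM in saline and 58838.8 to 73140.5 CPM in microbead libraries, with overlap. Past the threshold, 1 of 10 rod markers fell (*Nrl*, -0.97, edgeR adjusted p = 0.0192) and 1 of 7 cone markers rose (*Arr3*, 1.44, adjusted p = 0.0126). No bipolar cell marker changed past it. Among all tested genes 6.31% fell and 6.46% rose past it. Log2 fold changes were below 0 for 9 of 10 rod markers (median -0.22) and 3 of 7 cone markers (median 0.30). With a library left out, *Nrl* was past the threshold in 3 of 6 fits and *Arr3* in 5 of 6. Saline replicate 1 held 437 CPM of 11 RGC markers against 997 to 1457 CPM in the other libraries. The sums of the 2 groups overlapped. Of the 11 RGC markers 0 were past the threshold, with a median log2 fold change of 0.18. Without saline replicate 1 the median was -0.23, and 2 of the 11 fell past the threshold. Saline replicate 3 held 363 CPM of 5 lens crystallin and lens membrane genes, saline replicate 1 held 27.9 CPM, and the other libraries held 0.518 CPM or less. Saline replicate 3 also held the most retinal pigment epithelium transcripts (255 CPM of 6 genes, against 14.1 to 142 CPM). In whole retina, fewer cells of a type and less RNA per cell cannot be told apart.

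The upstream sequences of the members discussed first show what lies before their start sites. *Cav2* and *Cav1* are neighbors on the forward strand of chromosome 6 (GRCm38), *Cav2* at chr6:17281185-17289115 and *Cav1* at chr6:17306335-17341452, with 17219 bases between them. *Optn* lies on the reverse strand at chr2:5020642-5064051 and *Cyp1b1* on the reverse strand at chr17:79701537-79715061. The 250 bases before the RefSeq start site (GRCm38.p6) are given for these 4 genes, 5′ to 3′ on the strand of the gene, with matches to 4 short motifs on either strand in capitals. The GC box was searched as GGGCGG and the box named CCAAT by those letters. The letters searched for the TATA box were TATAAA, and those for the core that the Ahr receptor binds were GCGTG, without overlap between motifs in these windows. For *Cav1*, the first of its 2 listed starts is shown. The *Optn* start, chr2:5064117, lies outside the gene span given above, and the bases after it were found in no annotated transcript of *Optn*.
Cav2, chr6:17280935-17281184: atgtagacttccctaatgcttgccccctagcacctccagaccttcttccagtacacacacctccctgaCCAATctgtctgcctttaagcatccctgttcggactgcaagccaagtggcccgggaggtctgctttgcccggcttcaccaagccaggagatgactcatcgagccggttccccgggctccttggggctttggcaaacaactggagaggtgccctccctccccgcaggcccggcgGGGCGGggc
Cav1, chr6:17306085-17306334: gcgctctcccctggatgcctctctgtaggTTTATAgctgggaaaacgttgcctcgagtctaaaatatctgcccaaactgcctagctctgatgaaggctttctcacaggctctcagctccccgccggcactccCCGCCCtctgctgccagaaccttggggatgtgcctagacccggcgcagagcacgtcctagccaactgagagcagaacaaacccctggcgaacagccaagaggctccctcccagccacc
Cyp1b1, chr17:79715062-79715311: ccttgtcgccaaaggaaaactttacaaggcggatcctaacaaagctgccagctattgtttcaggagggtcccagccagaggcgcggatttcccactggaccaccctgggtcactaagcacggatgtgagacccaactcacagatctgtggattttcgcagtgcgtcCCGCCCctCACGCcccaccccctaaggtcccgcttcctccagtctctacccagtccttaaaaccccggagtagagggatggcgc
Optn, chr2:5064118-5064367: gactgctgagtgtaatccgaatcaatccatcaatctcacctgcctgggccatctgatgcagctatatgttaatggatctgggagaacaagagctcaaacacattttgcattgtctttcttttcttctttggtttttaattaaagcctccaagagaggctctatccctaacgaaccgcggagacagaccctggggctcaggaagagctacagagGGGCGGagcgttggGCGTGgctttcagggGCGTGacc

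Each of the 4 windows held 1 GC box. The *Cav2* window held 1 CCAAT box and no TATA box, and the *Cav1* window held no CCAAT box and 1 TATA box, on the reverse strand. The window before the other *Cav1* start, not shown, held none of the 4 motifs. The Ahr core was found once before *Cyp1b1* and 2 times before *Optn*, and in neither caveolin window. Among all 32851 windows of this length, 32.7% held a GC box, 33.8% a CCAAT box, 12.4% a TATA box and 28.2% an Ahr core. The bases G and C made up 62% of the *Cav2* window, 59.6% for *Cav1*, 58% for *Cyp1b1* and 50% for *Optn*. The median over all windows was 52.4%. These matches are a description of letters only.

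**Figure D1:**
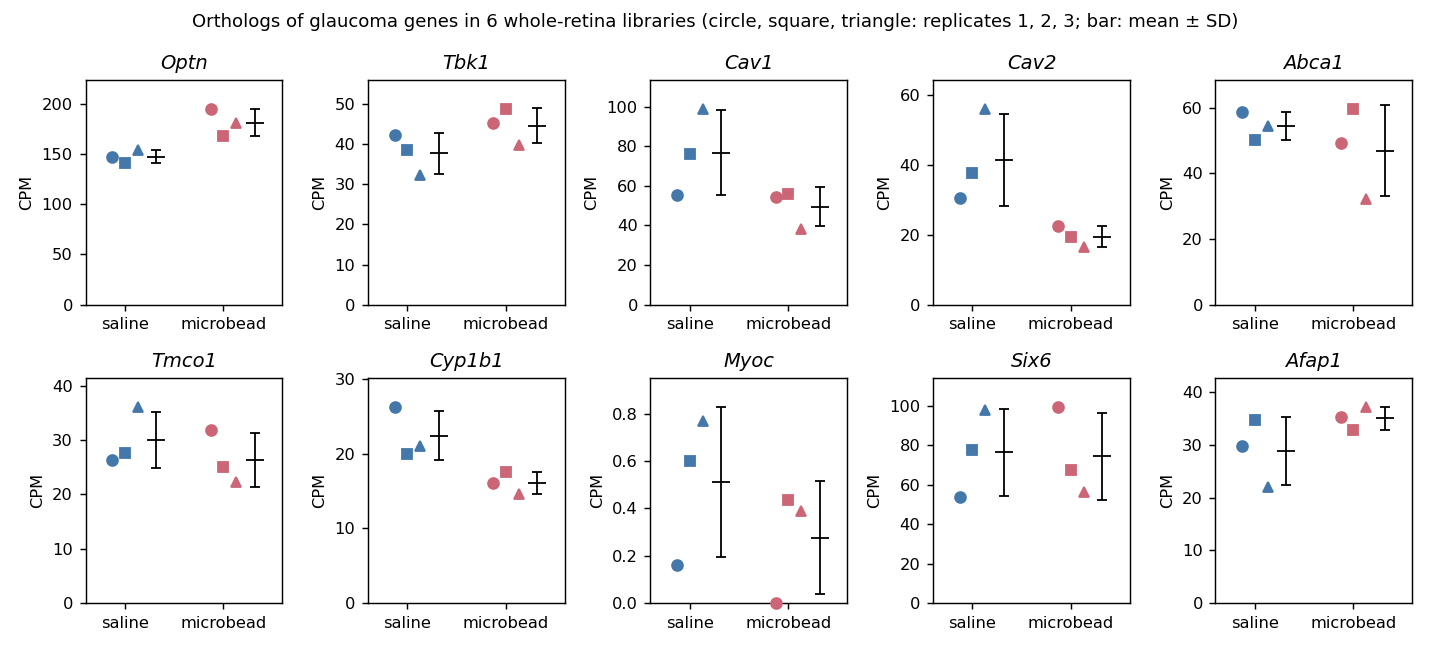
Level of each of the 10 orthologs in CPM (vertical axis, from 0, on TMM-scaled library sizes) in the 3 saline (blue) and 3 microbead (red) libraries; circles, squares and triangles are replicates 1, 2 and 3, and the black bars give the mean ± SD. The groups are apart for *Cav2* (16.5 to 22.5 CPM after microbead, 30.7 to 56.1 CPM after saline), *Cyp1b1* and *Optn*, and overlap for the other 7.

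Caveolins build the caveola, a small pit of the plasma membrane that is dense in endothelial cells and in Müller glia. Caveolin 1 forms the scaffold, and caveolin 2 joins it as a hetero-oligomer. *Cav2* (ENSMUSG00000000058.6) had levels of 30.7, 37.7 and 56.1 CPM after saline and 22.5, 19.4 and 16.5 CPM after microbead injection. Every microbead library lay below every saline library, and saline replicate 3 was the highest. Saline retinas averaged 41.5 ± 13.1 CPM and microbead retinas 19.5 ± 3.02 CPM (SD, n = 3 each). On the log2 scale the change was -1.09 (standard error 0.25, 95% interval -1.64 to -0.54, edgeR adjusted p = 0.0257).

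*Cav1* (ENSMUSG00000007655.16) was at 55.6, 76.1 and 98.9 CPM in saline and at 54.3, 56.0 and 38.3 CPM in microbead libraries. The groups overlapped, because saline replicate 1 was at the level of microbead replicates 1 and 2. The means were 76.9 ± 21.6 CPM and 49.6 ± 9.77 CPM (SD, n = 3 each), with a log2 fold change of -0.63 (standard error 0.24, 95% interval -1.18 to -0.09). The difference was not past the threshold (edgeR adjusted p = 0.110). With a library left out it was in 1 of 6 fits, that without saline replicate 1 (-0.82, adjusted p = 0.0392 from edgeR). Without saline replicate 3 the change was -0.41 (adjusted p = 0.277 from edgeR). Of 8 other settings, 1 called *Cav1*, that without the filter on low counts (-0.69, adjusted p = 0.0258 from edgeR). There the median log2 fold change of all genes was -0.23. *Cav1* was not called by DESeq2 (adjusted p = 0.0817) or limma-voom (adjusted p = 0.128).

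The call for *Cav2* held in 2 of the 6 fits with 1 library left out, and its direction did not change in any of them (-1.27 to -0.81). It was past the threshold without saline replicate 1 (adjusted p = 0.0124 from edgeR) and without saline replicate 3 (-0.81, adjusted p = 0.0486), the library with the most lens transcripts. It was not past the threshold without saline replicate 2 (-1.16, adjusted p = 0.0672 from edgeR) or microbead replicate 1 (-1.21, adjusted p = 0.0571). Nor was it without microbead replicate 2 (-1.07, adjusted p = 0.0795) or microbead replicate 3 (-0.99, adjusted p = 0.117). The same fits left 46 to 2621 of all genes past the threshold, with the fewest without microbead replicate 3.

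**Figure D2:**
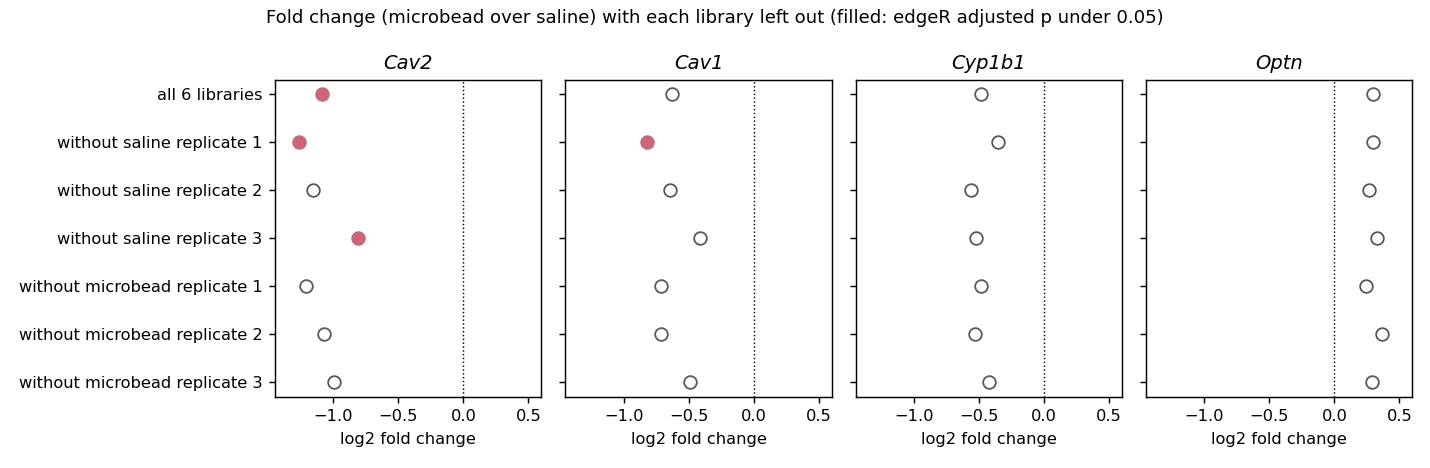
The log2 fold change of *Cav2*, *Cav1*, *Cyp1b1* and *Optn* (horizontal axis, microbead over saline) with all 6 libraries and with each library left out (rows); filled red points are past the edgeR threshold and open points are not. *Cav2* stays between -1.27 and -0.81 and is past the threshold in 2 of the 6 fits with a library left out, and *Cav1* in 1.

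The share of *Cav1* in the summed caveolin counts restates the changes above from the same counts and is not a separate result. *Cav1* made up 64.4, 66.9 and 63.8% of the summed *Cav1* and *Cav2* counts in saline libraries and 70.7, 74.3 and 69.9% in microbead libraries. Every microbead value lay above every saline value. The means were 65.0 ± 1.61% and 71.6 ± 2.32% (SD, n = 3 each), a difference of 6.58 percentage points (p = 0.1 in an exact permutation test, two-sided, which can give no smaller value with 3 libraries against 3). With a library left out, the difference ranged from 5.26 to 7.50 points.

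Of 12 other genes of the caveola coat and its partners, 10 were tested and 0 were past the threshold of edgeR's test. Among all tested genes 31.4% had an unadjusted p under 0.05, and DESeq2 called 1800 of 20270 genes lower. In this list 2 genes had such a p, and DESeq2 called the same 2 lower. These were *Ptrf* (cavin 1, which stabilizes the caveola coat), at -0.67 on the log2 scale (standard error 0.22, adjusted p = 0.0678 from edgeR), and *Ehd4*, a membrane-shaping ATPase, at -0.55 (standard error 0.18, adjusted p = 0.0678). *Ptrf* was at 18.4 to 24.4 CPM in saline and 10.7 to 14.6 CPM in microbead libraries, without overlap. The median log2 fold change of the 10 was 0.01. *Sdpr* (cavin 2) and *Prkcdbp* (cavin 3) overlapped between the groups, and the muscle form *Cav3* had at most 2 counts in any library.

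Markers of 3 cell types that carry caveolae were set beside these genes. The marker and pathway lists were chosen with earlier results of these data known, so their shares past the threshold are descriptions only. The 10 endothelial markers summed to 472, 489 and 674 CPM in saline and 320, 443 and 296 CPM in microbead libraries, without overlap (exact permutation test, p = 0.1), and 4 of the 10 fell past the threshold (40%, against 6.31% of all tested genes), *Cldn5*, *Esam*, *Flt1* and *Tie1*. The other 6 were not past it, among them *Emcn* (0.81) and *Egfl7* (0.21), with log2 fold changes above 0. With a library left out, 0 to 4 of them were past it, 0 without saline replicate 2, microbead replicate 1 or microbead replicate 3 and 1 without saline replicate 3. The 9 Müller glia markers summed to 5500 to 9407 CPM in saline, with saline replicate 3 highest, and to 4755 to 5714 CPM in microbead libraries, with overlap, and 2 of the 9 fell past the threshold. The 8 pericyte and smooth muscle markers summed to 128 to 203 CPM and 103 to 165 CPM, also with overlap, and 1 of the 8 fell past it. Median changes on the log2 scale were -0.62 for the endothelial list, -0.33 for the Müller glia list and -0.65 for the pericyte and smooth muscle list. Their part in the fall of *Cav2* was not tested.

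**Figure D3:**
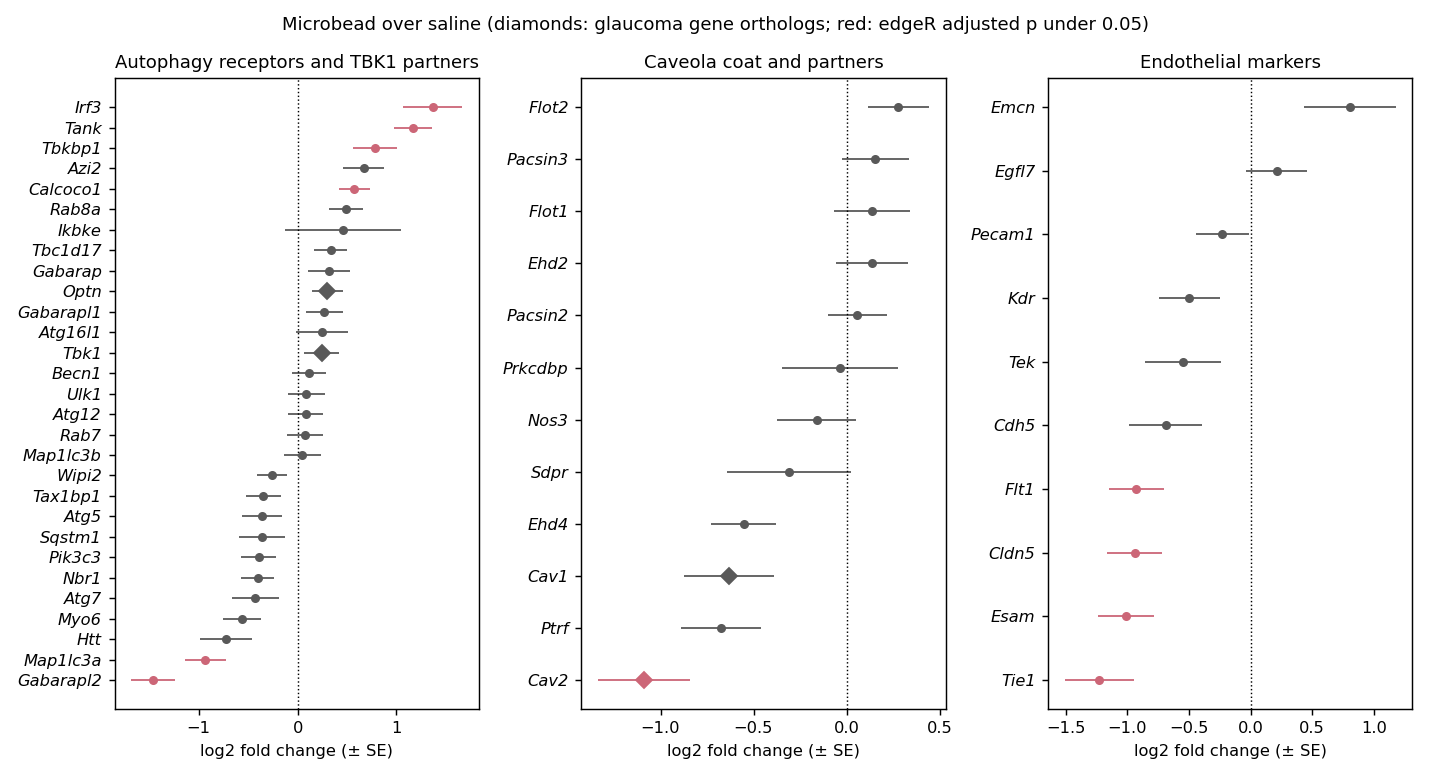
Log2 fold change (horizontal axis, microbead over saline, ± SE from edgeR) of each tested gene of 3 lists (rows): autophagy receptors and TBK1 partners with *Optn* and *Tbk1*, the caveola coat with *Cav1* and *Cav2*, and endothelial markers. Diamonds are the glaucoma gene orthologs and red marks an adjusted p under 0.05. *Cav2* (-1.09) lies lowest in its list, and *Optn* (0.30) and *Tbk1* (0.24) lie between *Tank* (1.17) and *Gabarapl2* (-1.46).

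*Optn* (ENSMUSG00000026672.11), the autophagy receptor, was the most abundant of the 10 per length, at 39.4 ± 1.67 CPM per kilobase of exon (SD, n = 3) in saline-injected retina. It had levels of 147, 142 and 154 CPM in saline and 195, 169 and 181 CPM in microbead libraries. All microbead libraries lay above all saline libraries, a difference of means from 148 ± 6.26 to 182 ± 13.3 CPM (SD, n = 3 each). The log2 fold change was 0.30 (standard error 0.16, 95% interval -0.05 to 0.65), not past the threshold (adjusted p = 0.223 from edgeR), and between 0.24 and 0.37 with a library left out. *Tbk1* (ENSMUSG00000020115.2), its kinase on chromosome 10, was at 42.3, 38.6 and 32.3 CPM in saline and 45.3, 48.8 and 40.0 CPM in microbead libraries. These values overlapped. Its log2 fold change was 0.24 (standard error 0.18, 95% interval -0.15 to 0.64, adjusted p = 0.378 from edgeR).

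Among 27 genes that work with optineurin and TBK1, 4 rose and 2 fell past the threshold, and the median log2 fold change was 0.08. The share was 22.2%, in a list chosen with earlier results of these data known, against 12.8% of all tested genes. *Tank*, a scaffold that holds TBK1, rose from 21.5 to 24.5 CPM in saline libraries to 43.5 to 63.6 CPM in microbead libraries (1.17 on the log2 scale, standard error 0.19, edgeR adjusted p = 0.0135). *Irf3*, the transcription factor that TBK1 phosphorylates in the response to viral nucleic acid, rose from 64.7, 41.9 and 26.0 CPM to 103, 106 and 133 CPM (1.37, standard error 0.30, adjusted p = 0.0232). The other risers were *Calcoco1* (0.58, adjusted p = 0.0447) and *Tbkbp1* (0.78, adjusted p = 0.0478), a TBK1 adaptor. A further adaptor of the kinase, *Azi2*, was at 65.3 to 99.7 CPM in saline and 118 to 160 CPM in microbead libraries (0.67, adjusted p = 0.0631 from edgeR). *Calcoco1*, *Tbkbp1* and *Azi2* were named after their values were seen.

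The 2 that fell encode ubiquitin-like proteins of the autophagosome membrane, to which optineurin and other receptors bind. *Gabarapl2* fell from 99.8 to 141 CPM to 34.4 to 53.4 CPM (-1.46, standard error 0.22, adjusted p = 0.0110 from edgeR), and *Map1lc3a* from 87.3 to 118 CPM to 39.6 to 59.0 CPM (-0.93, standard error 0.21, adjusted p = 0.0249). Their relatives *Map1lc3b* (0.05), *Gabarap* (0.32) and *Gabarapl1* (0.27) overlapped between the groups. The receptors *Sqstm1* (-0.36), *Nbr1* (-0.40) and *Tax1bp1* (-0.35) were not past the threshold. Without microbead replicate 3, 0 of the 27 were past it. *Tank* and *Gabarapl2* were past it in the other 5 fits with a library left out. *Irf3* and *Map1lc3a* were past it in only the fits without saline replicate 1 and without saline replicate 3, *Tbkbp1* in only the fit without microbead replicate 1, and *Calcoco1* in 0 of 6. The call of *Calcoco1* was also lost without the filter on low counts (edgeR adjusted p = 0.0901), and that of *Tbkbp1* with limma-voom (0.0566).

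*Cyp1b1* (ENSMUSG00000024087.3) encodes a cytochrome P450 that metabolizes steroids and retinoids and is induced through Ahr. It was at 26.2, 20.01 and 21.0 CPM in saline and at 16.1, 17.5 and 14.6 CPM in microbead libraries. The groups did not overlap, and saline replicate 1 was the highest. The means were 22.4 ± 3.31 and 16.0 ± 1.43 CPM (SD, n = 3 each), with a log2 fold change of -0.48 (standard error 0.20, 95% interval -0.92 to -0.04, adjusted p = 0.127 from edgeR). It stayed between -0.56 and -0.36 with a library left out and was past the threshold in 0 of these 6 fits. Of 12 genes of the Ahr and retinoid pathway, 9 were tested and 0 were past the threshold. An unadjusted p under 0.05 was found for 2 (against 31.4% of all tested genes), and DESeq2 called 2 lower (against 1800 of 20270 over all genes). The lowest adjusted p-values were those of the Ahr target *Tiparp* (-0.66, adjusted p = 0.0613 from edgeR) and of *Ahr* itself (-0.80, adjusted p = 0.0845). *Cyp1a1* and *Cyp1a2*, the related Ahr targets, were too low to be tested.

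*Myoc* (ENSMUSG00000026697.10), a secreted glycoprotein that is made mainly by the trabecular meshwork, was the lowest of the 10 in these retinas. It had 6, 29 and 27 counts in saline and 0, 6 and 6 counts in microbead libraries, or 0.159, 0.601 and 0.770 CPM and 0, 0.433 and 0.390 CPM. The count of 0 in microbead replicate 1 allows up to 3 counts, or 0.154 CPM, a limit that covers counting error only. The groups overlapped, and the 95% interval of the log2 fold change ran from -3.12 to 1.22 (adjusted p = 0.539 from edgeR), and at this depth no difference was detectable. Of 9 other genes of the olfactomedin family, 8 were tested and 0 were past the threshold. An unadjusted p under 0.05 was found for 2 (against 31.4% of all tested genes), and DESeq2 called 1 lower (against 1800 of 20270 over all genes). The lowest adjusted p-values were those of *Olfml2a* (-1.31, adjusted p = 0.0561 from edgeR) and *Olfm3* (-0.80, adjusted p = 0.113). The 5 iris and ciliary body markers summed to 27.9 to 56.0 CPM in saline and 49.2 to 79.0 CPM in microbead libraries, with overlap.

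*Six6* (ENSMUSG00000021099.6), a homeobox factor that is needed for the growth of the eye, varied as much within the groups as between them. It was at 53.8, 77.9 and 98.0 CPM in saline and 99.3, 67.7 and 56.5 CPM in microbead libraries. The log2 fold change was -0.04 (standard error 0.27, 95% interval -0.64 to 0.56, adjusted p = 0.940 from edgeR), and its sign depended on the scaling and on single libraries. Its neighbor on the opposite strand, 4930447C04Rik, shares 192 exon bases with it, 4.79% of the exon bases of *Six6* (GENCODE vM21). This gene rose, from 30.3, 26.6 and 10.8 CPM to 107, 103 and 70.9 CPM (2.05, standard error 0.35, adjusted p = 0.0144 from edgeR), and all microbead libraries lay above all saline libraries. It was past the threshold in 5 of 6 fits with a library left out, and not without microbead replicate 3 (adjusted p = 0.0668). The library kit kept strand, but whether the counting used it is not stated in the sources used here. How reads of the shared bases were assigned is therefore not known.

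Of 12 eye field factors and neighbors of *Six6*, this gene included, 1 rose and 2 fell past the threshold. The share was 25%, in a list chosen with earlier results of these data known, against 12.8% of all tested genes. *Dach1*, a corepressor that works with Eya proteins, fell from 47.7 to 78.4 CPM to 28.2 to 42.8 CPM (-0.93, adjusted p = 0.0362 from edgeR). *Rax*, a homeobox factor of the early eye field, fell from 68.7 to 99.6 CPM to 27.5 to 54.3 CPM (-0.92, adjusted p = 0.0477). Each was past the threshold in 1 of 6 fits with a library left out, *Dach1* in the fit without saline replicate 1 and *Rax* in the fit without saline replicate 3. The call of *Rax* was also lost with RLE scaling (edgeR adjusted p = 0.0513), upper-quartile scaling (0.0562) and library totals without mitochondrial genes. *Six3*, the closest relative of *Six6*, was at 146 to 160 CPM in saline and 185 to 212 CPM in microbead libraries, which did not overlap (0.36, adjusted p = 0.147 from edgeR). *Six3* was named after its values were seen.

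*Abca1* (ENSMUSG00000015243.4), the transporter that loads cholesterol onto apolipoproteins, was at 58.6, 50.2 and 54.5 CPM in saline and 49.2, 59.6 and 32.1 CPM in microbead libraries. Microbead replicate 3 was the lowest and the groups overlapped. The log2 fold change was -0.21 (95% interval -0.72 to 0.30, adjusted p = 0.561 from edgeR) and -0.01 without that library. Of 14 genes of lipid efflux, 0 were past the threshold of edgeR's test, and DESeq2 called 1 lower (against 1800 of 20270 over all genes). An unadjusted p under 0.05 was found for 8, 4 in each direction, while 31.4% of all tested genes had such a p. The lowest adjusted p-values were those of *Apoa1*, which was at most 0.566 CPM in any library (2.24, adjusted p = 0.0685 from edgeR), and of the transporter *Abcg1* (-0.56, adjusted p = 0.0749).

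*Tmco1* (ENSMUSG00000052428.10) encodes a protein of the endoplasmic reticulum that releases calcium when stores are overfull and is part of the translocon for proteins with several membrane spans. It was at 26.4, 27.6 and 36.0 CPM in saline and 31.9, 25.0 and 22.2 CPM in microbead libraries, with overlap and a log2 fold change of -0.19 (95% interval -0.65 to 0.28, adjusted p = 0.582 from edgeR). Of 8 other translocon genes, 1 rose and 2 fell past the threshold, and the median was -0.38. The share was 37.5%, in a list chosen with earlier results of these data known, against 12.8% of all tested genes. With a library left out, at most 1 rose and at most 1 fell, and without saline replicate 2 or microbead replicate 3 there were 0 of each. *Wdr83os* rose from 18.7 to 20.9 CPM to 38.9 to 57.8 CPM (1.20, standard error 0.20, adjusted p = 0.0138 from edgeR). *Nomo1* fell from 182 to 241 CPM to 102 to 136 CPM (-0.83, adjusted p = 0.0248) and *Sec61b* from 16.5 to 19.7 CPM to 8.67 to 13.3 CPM (-0.84, adjusted p = 0.0453). *Wdr83os* was past the threshold in 4 of 6 fits with a library left out, not without saline replicate 2 or microbead replicate 3. *Nomo1* was past it in only the fit without saline replicate 1, and *Sec61b* in only the fit without microbead replicate 1. Upper-quartile scaling also ended the call of *Sec61b* (adjusted p = 0.0532 from edgeR).

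*Afap1* (ENSMUSG00000029094.12), an adaptor between actin filaments and the kinase Src, was at 29.8, 34.7 and 22.0 CPM in saline and 35.2, 32.8 and 37.1 CPM in microbead libraries. The values overlapped, and saline replicate 3 was the lowest. The log2 fold change was 0.28 (standard error 0.20, 95% interval -0.17 to 0.73, adjusted p = 0.375 from edgeR), and 0.12 without saline replicate 3. Of 8 relatives and partners, 0 were past the threshold of edgeR's test and 0 of DESeq2. An unadjusted p under 0.05 was found for 2, against 31.4% of all tested genes. These were *Src* (-0.49, adjusted p = 0.0882 from edgeR) and *Afap1l1* (-0.60, adjusted p = 0.133).

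**Figure D4:**
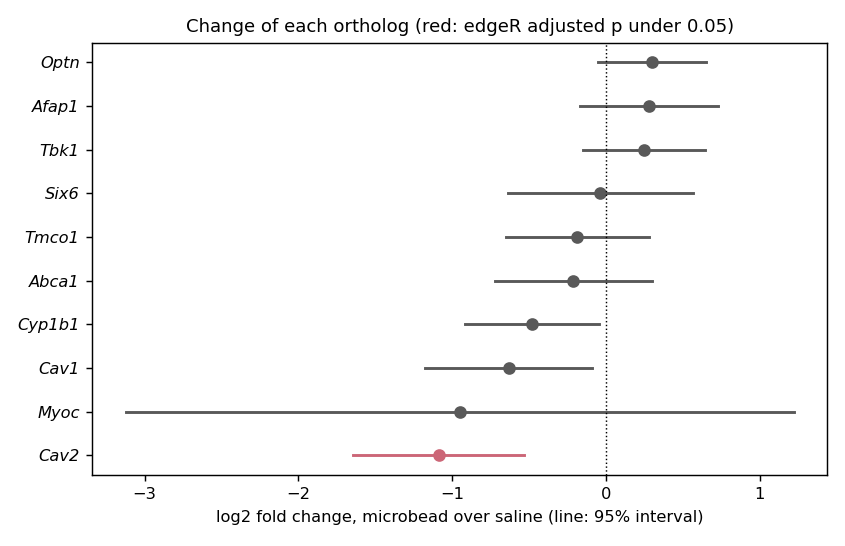
Log2 fold change of each ortholog (horizontal axis, microbead over saline) with its 95% interval from edgeR's fit, from the highest at the top to the lowest. Only the interval of *Cav2* (red) belongs to a change past the threshold; those of *Cav1* and *Cyp1b1* end below 0, and that of *Myoc* runs from -3.12 to 1.22.

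Per length, the order of the levels in saline-injected retina was *Optn*, *Cav1* (22.3 ± 6.28 CPM per kilobase of exon), *Six6* (19.1 ± 5.51), *Cav2* (12.4 ± 3.93), *Tbk1* (9.65 ± 1.29), *Tmco1* (6.30 ± 1.09), *Abca1* (5.25 ± 0.404), *Cyp1b1* (3.84 ± 0.567), *Afap1* (2.28 ± 0.507) and *Myoc* (0.246 ± 0.152; SD, n = 3 each). The libraries of neighbors in this order overlapped for *Cav1* and *Six6*, *Six6* and *Cav2*, *Cav2* and *Tbk1*, and *Tmco1* and *Abca1*. In microbead-injected retina *Cav2* was at 5.84 ± 0.906 CPM per kilobase (SD, n = 3), below *Tbk1* at 11.4 CPM per kilobase. Of their annotated 100-base stretches, 2.38% of *Six6*, 0.2% of *Tbk1*, 0.126% of *Afap1* and 0% of the other 7 occur in transcripts of another gene, on either strand. Over the 6 libraries, the genes of at least 10 CPM whose log2 CPM followed *Cav2* most closely, out of 10350, were *Rnmt* (r = 0.999), *Cul2* (r = 0.998) and *Rab5a* (r = 0.998), which is a description of 6 points that share the group difference.

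Other orthologs of glaucoma genes, 38 in all, were taken as a wider list, of which 37 were in the table and 31 were tested. Of these, 3 rose and 1 fell past the threshold, 12.9% against 12.8% of all tested genes, with a median log2 fold change of -0.26. *Gas7*, a protein that binds actin in neurites, rose from 113 to 170 CPM to 299 to 435 CPM (1.39, standard error 0.22, adjusted p = 0.0114 from edgeR). *Cdc7*, a kinase that starts DNA replication, rose from 16.9 to 25.4 CPM to 50.1 to 58.6 CPM (1.27, standard error 0.20, adjusted p = 0.0119). *Col11a1*, a fibrillar collagen chain, rose from 1.40 to 5.72 CPM to 16.5 to 22.8 CPM (2.31, standard error 0.44, adjusted p = 0.0168). *Exoc2*, a subunit of the exocyst that tethers secretory vesicles, fell from 53.5 to 74.2 CPM to 35.9 to 42.1 CPM (-0.66, adjusted p = 0.0471). *Gas7* and *Cdc7* were past the threshold in each fit with a library left out other than that without microbead replicate 3, *Col11a1* in those other than without microbead replicates 2 and 3, and *Exoc2* in only that without saline replicate 1. The call of *Exoc2* was also lost with RLE scaling (edgeR adjusted p = 0.0542), upper-quartile scaling (0.0579), library totals without mitochondrial genes and limma-voom. Counts over the list were 0 without microbead replicate 3 and 3 higher and 3 lower without saline replicate 1.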

How the data were processed

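Whole-retina RNA of 3 saline-injected and 3 microbead-injected samples, grouped by their sample labels, was analysed. The authors aligned reads with STAR 2.5.3a to GRCm38 with GENCODE vM12, counted them per gene with featureCounts 1.15.2, and deposited the raw counts. The deposited table also holds the authors' DESeq2 1.14 results (a mean normalized signal, a log2 fold change, a linear fold change or ratio, p-values and a mark of calls), which were not used.

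Genes passing filterByExpr (minimum count setting 10, minimum total 15) were scaled by TMM. This filter does not ask for 10 counts in each library, and *Myoc* passed it with 0 to 29. The genes were compared with edgeR 4.0.16 in R 4.3.3 (glmQLFit and glmQLFTest, two-sided, Benjamini-Hochberg adjustment over 17707 genes, threshold 0.05). CPM use TMM-scaled sizes. Values per kilobase use the union of GENCODE vM21 exons. Intervals are 95%. At the smallest library, 3 counts are 0.217 CPM, for counting error only. No library was a copy of another, since chi-square divided by its degrees of freedom was 22.0 or more for each pair within a group. The steps were tested on simulated data.

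The members and lists were chosen with earlier results of these data known. All members were named, with up to 4 genes of lowest adjusted p per list among those past the threshold, or else 2. No library was left out. Other settings tried were scaling by upper quartile or RLE, totals that omit mitochondrial genes, dropping the filter, asking for 10 counts in each library, DESeq2 1.42.0, limma 3.58.1 with voom, the replicate number as a block, a threshold of 0.01, and each library left out. The alternatives for the gene lists were added after the data were seen.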

Additional observations from a re-analysis of the deposited data

How the results depend on the processing

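The number of members that fell past the threshold was 1 with all libraries and 2 without the filter on low counts, and with a library left out it ranged from 0 to 2, while the number that rose was 0 in each of these fits. Over all genes the count of 2261 became 3720 without the filter, 3621 with DESeq2 and 87 at an adjusted p-value under 0.01, and with a library left out it ranged from 46, without microbead replicate 3, to 2621, without saline replicate 1. With the replicate number as a block, 0 members and 905 genes were past the threshold, and *Cav2* had a log2 fold change of -1.05 (adjusted p = 0.0660 from edgeR). That fit also left 0 endothelial, Müller glia and pericyte markers past the threshold, and *Irf3* (0.0529), *Calcoco1*, *Tbkbp1*, *Sec61b*, *Dach1* (0.0539), *Rax* (0.0548) and *Exoc2* were not past it. Without the filter, 1511 genes were higher and 2209 lower, against 1143 and 1118 with it, and the median change over all genes was -0.23 on the log2 scale. The samples share only a number: deviations of same-numbered libraries from their group means correlated at -0.0127, 0.1405 and -0.00858 across genes. The direction of *Six6* turned with upper-quartile scaling (0.0065 on the log2 scale), without saline replicate 3 (0.18), without microbead replicate 2 (0.04) and without microbead replicate 3 (0.12), and with a library left out it ranged from -0.31 to 0.18. The cause of these differences was not tested. The other 9 members kept their direction under every alternative that tested them. *Myoc* was not tested without saline replicate 2, without saline replicate 3 or with at least 10 counts in every library, because it did not pass the filter there. The difference in the *Cav1* share was 6.66 percentage points per exon base. Counting error weighs mainly on *Myoc*, since every other member had 225 counts or more in each library. Any other effect of the difference in depth between the groups cannot be told apart from the injection.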
